A study of Mus musculus with 32 samples.

Results

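Transcripts of 9 genes of basophils and mast cells, chosen by name from a list of markers of these cells (Fcer1a, Ms4a2, Il1rl1, Gzmb, Cpa3, Mcpt8, Prss34, Hdc and Lmo4), were followed in mouse hematopoietic stem and progenitor cells (HSPCs). They are 9 of 45706 gene identifiers in the tables and 9 of the 15186 that had enough reads to be tested. After LPS, a bacterial cell wall component that triggers inflammation, 7 of the 9 rose in mice that had been through leukaemia, where 4.52% of tested genes rose and 8.26% fell, and all 9 rose in mice that had not, where 9.81% rose and 11.9% fell. No member fell in either. The members were chosen with earlier results of these data known, so setting them beside all tested genes is a description, not an independent test. The count of 7 was 3 to 8 over the alternative settings tried, and that of 9 was 8 or 9. Over those settings 144 to 2212 of all tested genes rose in experienced mice, and 316 to 2219 in naive mice.

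The study asked how residual healthy HSPCs behave after acute myeloid leukaemia has regressed. Each C57BL/6J (CD45.2) recipient was lethally irradiated and received 800000 wild-type marrow cells (CD45.1+/2+) mixed with 200000 CD45.1 partner cells. Partner cells carried an inducible human MLL-AF9 fusion gene with homozygous rtTA in the experienced mice, and rtTA without the fusion gene in the naive mice. The labels do not name the promoters of these transgenes. From 6 to 8 weeks after transplantation mice went through 5 weeks of doxycycline induction and 4 weeks of withdrawal, then LPS or PBS, and were killed 24 hours later. The 4 groups are therefore experienced LPS, experienced PBS, naive LPS and naive PBS, with 4 libraries each, and the RNA in all of them came from sorted wild-type CD45.1+/2+ Lin- cKit+ Sca1+ marrow cells, which never carried the fusion gene. The doses of LPS and doxycycline and the age and sex of the mice are not given in the labels.

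Basophils and mast cells are granulocytes that carry immunoglobulin E (IgE) on a high-affinity receptor and release histamine, proteases and lipid mediators when that receptor is crosslinked. In mouse marrow they arise through progenitors that share the factors Gata2 and Gata1 with the erythroid and megakaryocyte branches. Mast cells keep the receptor Kit, a marker of the sort gate, and some transcripts of this branch are already made in early progenitors. Fcer1a and Ms4a2 encode the alpha and beta chains of the IgE receptor, and Il1rl1 the receptor for the alarmin interleukin-33. Gzmb, Cpa3, Mcpt8 and Prss34 encode granule proteases, Hdc the enzyme that makes histamine, and Lmo4 a LIM-domain protein that binds transcription factor complexes.

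Because these genes moved together, the sequence before their start sites is shown for 5 of them: the genes of the IgE receptor chains and of the interleukin-33 receptor, whose windows hold the GATA motif, Gzmb, which had the largest change, and Mcpt8, the basophil protease gene whose window holds none. The windows are RefSeq sequence of GRCm38.p6, each covering the 250 bases upstream of the annotated start, read 5′ to 3′ on the strand of the gene. They lie at chr1:173227230-173227479 (Fcer1a, minus strand), chr19:11623720-11623969 (Ms4a2, minus strand), chr1:40429320-40429569 (Il1rl1, plus strand, the upstream of 2 annotated starts), chr14:56262335-56262584 (Gzmb, minus strand) and chr14:56085198-56085447 (Mcpt8, minus strand). Capitals mark GATAA or its reverse complement TTATC, and in Gzmb the AP-1 motif TGACTCA or its reverse complement TGAGTCA.
Fcer1a: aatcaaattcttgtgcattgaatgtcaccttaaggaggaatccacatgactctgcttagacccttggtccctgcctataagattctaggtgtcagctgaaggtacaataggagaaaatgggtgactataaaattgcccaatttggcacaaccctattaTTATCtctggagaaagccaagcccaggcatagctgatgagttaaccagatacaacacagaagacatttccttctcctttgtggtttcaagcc
Ms4a2: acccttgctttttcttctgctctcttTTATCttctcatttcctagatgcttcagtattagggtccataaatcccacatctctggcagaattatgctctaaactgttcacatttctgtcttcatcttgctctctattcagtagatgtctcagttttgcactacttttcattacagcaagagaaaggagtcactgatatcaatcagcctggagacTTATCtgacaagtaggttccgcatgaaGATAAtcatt
Il1rl1: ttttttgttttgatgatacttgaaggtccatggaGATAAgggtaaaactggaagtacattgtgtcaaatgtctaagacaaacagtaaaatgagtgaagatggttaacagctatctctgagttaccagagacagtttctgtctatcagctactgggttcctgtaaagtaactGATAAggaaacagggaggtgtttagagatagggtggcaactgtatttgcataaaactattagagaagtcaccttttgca
Gzmb: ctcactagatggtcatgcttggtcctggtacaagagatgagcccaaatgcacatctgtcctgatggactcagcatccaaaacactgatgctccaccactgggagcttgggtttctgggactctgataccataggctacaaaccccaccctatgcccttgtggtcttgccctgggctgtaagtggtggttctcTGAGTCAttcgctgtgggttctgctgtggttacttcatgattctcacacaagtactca
Mcpt8: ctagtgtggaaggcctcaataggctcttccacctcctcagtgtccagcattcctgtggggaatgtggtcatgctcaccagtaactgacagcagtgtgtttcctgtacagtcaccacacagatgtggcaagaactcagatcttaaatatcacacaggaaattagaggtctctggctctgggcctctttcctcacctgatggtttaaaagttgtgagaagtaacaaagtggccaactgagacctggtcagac
Motifs were searched on both strands in 12 RefSeq windows that reach from 250 bases before to 50 bases after each start and that matched 9 of 9 members. GATAA was found in 5 of the 9 members, counting a member if any of its windows held it. The shares over all mouse windows given below count single windows instead. Ms4a2 held it at -224, -37 and -10 relative to the start, and the upstream Il1rl1 start at -216 and -79. Fcer1a held 1 match at -92, Cpa3 1 at -45, Prss34 1 at -30 and the downstream Il1rl1 start 1 at -103. The windows of Gzmb, Lmo4, Hdc and Mcpt8 held none. Of 32851 mouse windows of this length, 25.4% held GATAA at least once and 5.27% held 2 or more. TGACTCA was found in Gzmb alone among the members, at -58, and in 5.2% of all windows. TTGCNNAA, a motif bound by C/EBP factors, was in the windows of Fcer1a, Il1rl1 and Lmo4, against 10.8% of all windows, and TTCNNNGAA, the motif of STAT factors, in that of Gzmb, against 8.3%. The 3 windows of Lmo4 were 72.7% to 81.3% G and C, above the upper quartile of 61.7% over all windows, while those of the other members lay between 38.7% and 52.0%. A match is only a run of letters, and no measurement of factor binding was used.

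Library totals ran from 7718857 to 22264672 expected counts, and 14859 to 19673 genes were detected per library. Mitochondrial transcripts made up 1.91% to 7.3% of counts, with the highest shares in experienced LPS replicate 4 (7.3%) and experienced PBS replicate 4 (5.94%), which are also among the shallower libraries. Kit, a gene of the sort gate, was present in every library, at 115 to 203 TPM in experienced LPS, 178 to 222 TPM in experienced PBS, 118 to 222 TPM in naive LPS and 176 to 232 TPM in naive PBS libraries. TPM is a transcript abundance scaled for gene length and library total, so that levels of different genes can be compared.

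The alpha chain of the IgE receptor, which binds IgE itself, rose after LPS in both kinds of mice. Fcer1a (ENSMUSG00000005339, GRCm38 chromosome 1, 173221284 to 173227214, minus strand) stood at 35, 31.4, 29.9 and 17.6 TPM in experienced LPS libraries, against 4.42, 2.67, 6.02 and 4.37 TPM in experienced PBS libraries. In naive mice it stood at 42.9, 24.9, 42.5 and 49.9 TPM after LPS, against 4.29, 7.39, 8 and 3.22 TPM after PBS. Every LPS library was above every PBS library in both kinds of mice. The log2 change was 2.88 (SE 0.32, adjusted p = 5.43e-05) in experienced and 3.0 (SE 0.31, adjusted p = 1.63e-05) in naive mice, from the quasi-likelihood test of edgeR, adjusted after Benjamini and Hochberg over all tested genes, as for every adjusted p here. In such bulk samples more cells of a type and more RNA per cell cannot be told apart.

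Ms4a2, the beta chain that amplifies the signal of that receptor, varied more between PBS libraries, relative to its mean, than the alpha chain. Its levels (ENSMUSG00000024680, chromosome 19, 11615523 to 11623719, minus strand) were 39, 37, 54.2 and 66.1 TPM in experienced LPS, against 1.42, 2.68, 5.22 and 14.4 TPM in experienced PBS libraries. They were 100, 78.7, 50.3 and 35.6 TPM in naive LPS, against 6.28, 4.72, 3.94 and 1.09 TPM in naive PBS libraries. Experienced PBS replicate 4 was the highest PBS library, and still below every LPS library. By edgeR, Ms4a2 rose by a log2 of 3.07 (SE 0.56, adjusted p = 0.00205) in experienced and 4.40 (SE 0.59, adjusted p = 0.000131) in naive mice. The gamma chain Fcer1g, which IgE receptors share with other Fc receptors, did not pass the test: its log2 change was -0.49 (SE 0.26, adjusted p = 0.231 by edgeR) in experienced and -0.29 (SE 0.25, adjusted p = 0.44) in naive mice. Fcer1g averaged 26.1 ± 3.73 TPM in experienced LPS and 41 ± 11.6 TPM in experienced PBS libraries, and 28 ± 13.4 TPM in naive LPS and 37.2 ± 7.2 TPM in naive PBS libraries (SD, n = 4 each).

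Il1rl1, the receptor through which interleukin-33 activates mast cells, basophils and group 2 innate lymphoid cells, overlapped between treatments in experienced mice only through 1 library. Levels of Il1rl1 (ENSMUSG00000026069, chromosome 1, 40429570 to 40465415, plus strand) were 26.8, 20.5, 27.6 and 51.8 TPM in experienced LPS, against 1.68, 2.14, 9.14 and 22.1 TPM in experienced PBS libraries. They were 76.1, 33.8, 34.8 and 29.8 TPM in naive LPS, against 2.66, 3.11, 5.23 and 1.88 TPM in naive PBS libraries. Experienced PBS replicate 4, at 22.1 TPM, lay above experienced LPS replicate 2, at 20.5 TPM. The log2 change by edgeR was 1.92 (SE 0.59, adjusted p = 0.0434) in experienced and 3.97 (SE 0.65, adjusted p = 0.000614) in naive mice. The experienced call was close to the threshold and was lost in 12 of 25 alternative settings, with log2 values from 1.56 to 4.13 and adjusted p from 0.000106 to 0.126.

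Il1rl1 transcripts encode a membrane receptor and a soluble decoy form, which end at different places. Annotated transcripts measure 375, 1216, 2661, 5053 and 5302 bases, and the tables give 1 value for all of them together with RSEM's mean transcript length weighted by abundance. That length was 3568 to 3774 bases in experienced LPS, 3459 to 4136 in experienced PBS, 3274 to 3576 in naive LPS and 2359 to 4065 in naive PBS libraries. The ranges overlap, and the mix of forms was not resolved. For Ms4a2, with annotated transcripts of 402 to 2391 bases, the weighted length was 1789 to 2260 bases in experienced LPS, 2035 to 2391 in experienced PBS, 1694 to 2154 in naive LPS and 1328 to 2300 in naive PBS libraries. TPM depends on these lengths, while the count test makes no correction for them.

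**Figure D1:**
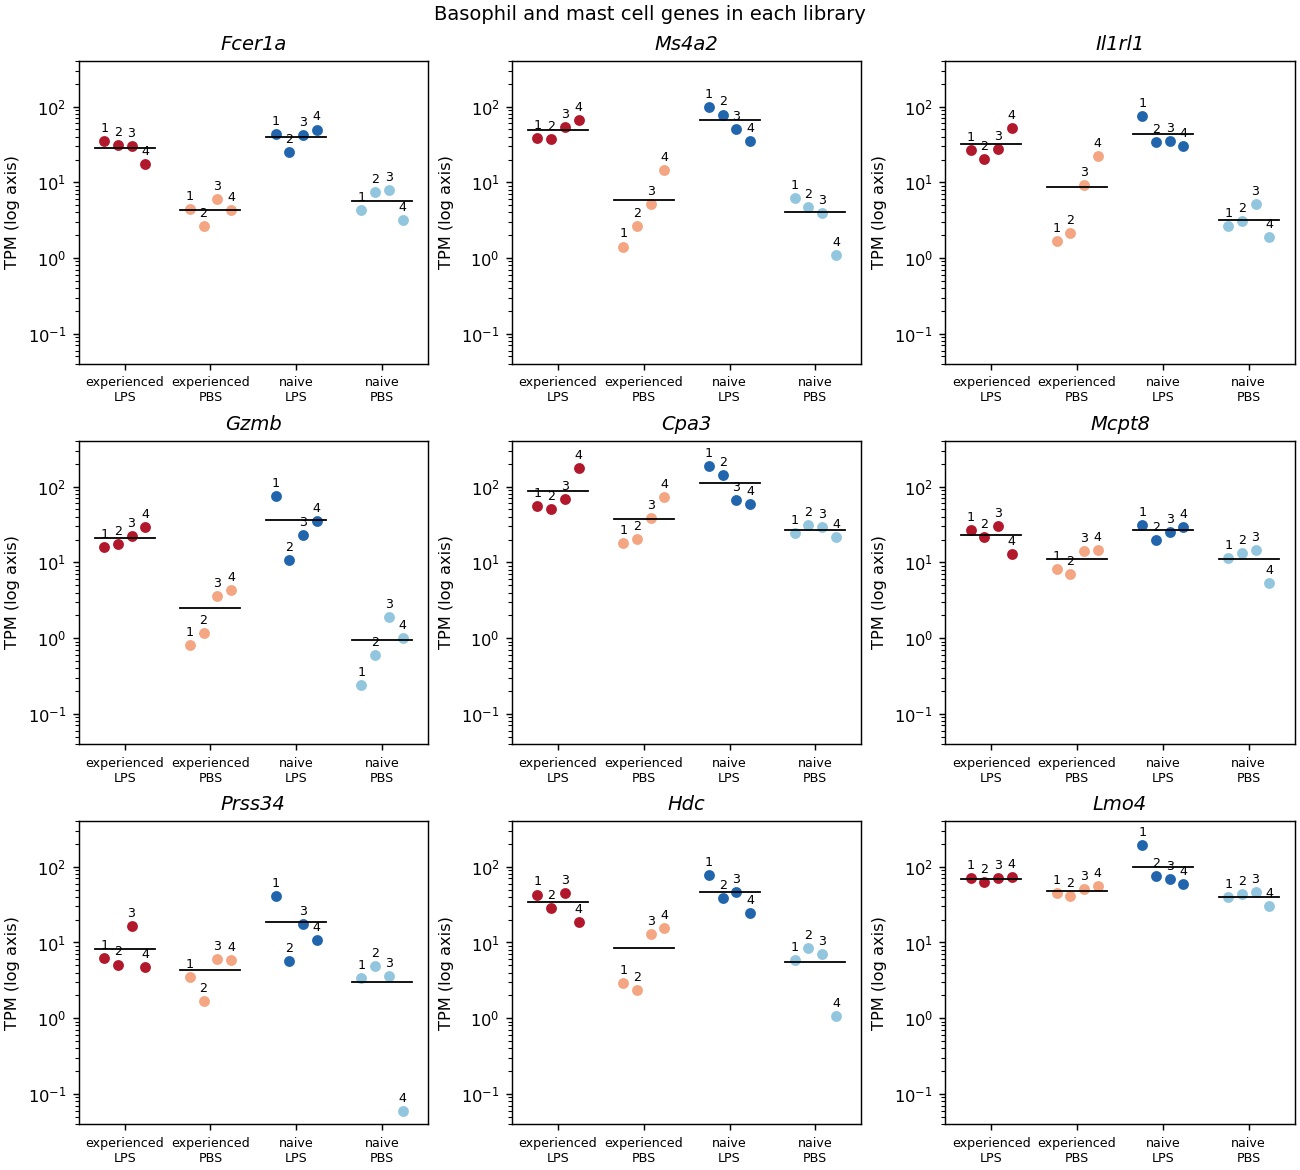
TPM of the 9 genes (log axis, 1 panel per gene) in each library, with the replicate number above each point and a bar at the mean of the 4 libraries. In naive mice every LPS library lies above every PBS library for all 9 genes; in experienced mice this holds for Fcer1a, Ms4a2, Gzmb, Hdc and Lmo4.

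Among the granule proteases, Gzmb had the largest log2 change in both kinds of mice. Gzmb encodes granzyme B, a serine protease of cytotoxic lymphocytes that mouse mast cells and activated basophils can also make. Its levels (ENSMUSG00000015437, chromosome 14, 56258838 to 56262260, minus strand) were 15.9, 17.3, 22.6 and 29.4 TPM in experienced LPS, against 0.82, 1.15, 3.64 and 4.29 TPM in experienced PBS libraries. In naive mice they were 74.6, 10.6, 23.3 and 35 TPM after LPS, against 0.24, 0.59, 1.9 and 1.01 TPM after PBS. The treatments did not overlap, and naive LPS libraries differed widely among themselves. Gzmb rose by a log2 of 3.27 (SE 0.61, adjusted p = 0.00241, edgeR) in experienced and 5.38 (SE 0.67, adjusted p = 7.43e-05) in naive mice.

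Mcpt8, a protease made by basophils and used as their marker in mice, lies in the same protease cluster of chromosome 14 (ENSMUSG00000022157, 56082166 to 56085273, minus strand, with the microRNA gene Mir6949 inside it). Its levels were 26.4, 21.8, 30.6 and 12.8 TPM in experienced LPS, against 8.07, 7.09, 14.1 and 14.7 TPM in experienced PBS libraries. In naive mice Mcpt8 stood at 31.6, 19.8, 25.2 and 29.3 TPM after LPS, against 11.5, 13.5, 14.4 and 5.34 TPM after PBS. Experienced LPS replicate 4 was the low library here, below experienced PBS replicates 3 and 4, whereas naive libraries did not overlap. The log2 change by edgeR was 1.25 (SE 0.32, adjusted p = 0.0178) in experienced and 1.41 (SE 0.32, adjusted p = 0.00582) in naive mice. The experienced call was lost in 7 of 25 alternative settings, with adjusted p up to 0.0829.

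The cluster that holds both genes spans 15 annotated protein-coding genes of the granzyme, mast cell protease, chymase and cathepsin G families (chromosome 14, 55941451 to 56262260), picked here after their values had been seen. Between Mcpt8 and Gzmb, the genes Gzmd, Gzmg, Gzmn and Gzmf were at 0 in all 16 libraries, and Gzme reached at most 0.33 TPM. Gzmc, the direct neighbour of Gzmb, stood at 2.15, 2.91, 1.66 and 2.73 TPM in experienced LPS libraries and at 0 in all 4 experienced PBS libraries. In naive mice Gzmc stood at 5.56, 1.6, 3.65 and 3.54 TPM after LPS and at 0 in all 4 libraries after PBS. Summed over each group this was 84 counts after LPS against 0 of 61780258 counts after PBS in experienced mice, and 159 counts against 0 of 78151992 in naive mice. With a floor of 3 counts over the group, Gzmc was at least 29.3-fold higher after LPS in experienced (adjusted p = 0.000428, edgeR) and at least 67.6-fold higher in naive mice (adjusted p = 0.000107). Granzyme genes are close in sequence, and how far RSEM divided reads between Gzmb and Gzmc is uncertain. Ctsg, a protease gene of neutrophil progenitors between Mcpt8 and Gzme, was far more abundant, at 148 to 542 TPM in experienced LPS, 128 to 350 TPM in experienced PBS, 197 to 394 TPM in naive LPS and 73.7 to 211 TPM in naive PBS libraries.

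Cpa3, a carboxypeptidase stored in mast cell granules and active early in their progenitors, was already high in resting HSPCs. It lies on chromosome 3 (ENSMUSG00000001865, 20215620 to 20242181, minus strand, with Mir7007 inside it). Cpa3 stood at 55, 50.8, 69.4 and 177 TPM in experienced LPS, against 17.9, 20.4, 39 and 73.2 TPM in experienced PBS libraries. In naive libraries it stood at 185, 141, 66.2 and 58.3 TPM after LPS, against 24.5, 31.1, 29.3 and 21.4 TPM after PBS. In experienced mice the resting replicate 4 exceeded 3 of the 4 LPS libraries. Its change passed the test in naive mice (log2 2.17, SE 0.47, adjusted p = 0.00427, edgeR) and did not pass it in experienced mice (1.33, SE 0.46, adjusted p = 0.0659), where 5 of 25 alternative settings brought it under the threshold.

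Prss34 encodes a tryptase-like protease found in mouse basophils and mucosal mast cells, and was the least abundant member after LPS. It lies on chromosome 17 (ENSMUSG00000056399, 25298394 to 25300165, plus strand). Prss34 stood at 6.21, 5.11, 16.5 and 4.78 TPM in experienced LPS, against 3.52, 1.68, 6.11 and 5.86 TPM in experienced PBS libraries. In naive libraries it stood at 41.5, 5.68, 17.3 and 10.8 TPM after LPS, against 3.4, 4.84, 3.63 and 0.06 TPM after PBS. The lowest of these rests on 1 expected count. Experienced groups overlapped and the test was not passed (log2 1.13, SE 0.71, adjusted p = 0.324, edgeR), while in naive mice Prss34 rose by a log2 of 2.77 (SE 0.73, adjusted p = 0.0138). Without naive LPS replicate 1, the highest library, the naive value was 2.21 with adjusted p = 0.0512 in the same test.

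Hdc, histidine decarboxylase, makes histamine from histidine and is also active in myeloid-biased stem cells. It lies on chromosome 2 (ENSMUSG00000027360, 126593667 to 126619299, minus strand). Hdc stood at 43, 28.6, 45.3 and 18.6 TPM in experienced LPS, against 2.87, 2.32, 13 and 15.7 TPM in experienced PBS libraries. In naive libraries it stood at 78, 38.4, 46.5 and 24.5 TPM after LPS, against 5.87, 8.34, 6.96 and 1.08 TPM after PBS. No PBS library reached an LPS library, although experienced LPS replicate 4 and experienced PBS replicate 4 were close. Hdc rose by a log2 of 2.05 (SE 0.58, adjusted p = 0.0279, edgeR) in experienced and 3.05 (SE 0.60, adjusted p = 0.00233) in naive mice. In experienced mice 6 of 25 alternative settings lost the call, with adjusted p up to 0.0815.

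Lmo4, the most abundant member at rest, changed the least. It lies on chromosome 3 (ENSMUSG00000028266, 144188530 to 144205220, minus strand, overlapped by Gm43445 on the same strand). Lmo4 stood at 70, 62.4, 70.9 and 72.4 TPM in experienced LPS, against 45.2, 41.1, 50.8 and 55.3 TPM in experienced PBS libraries. In naive libraries it stood at 191, 76.4, 69.5 and 59.5 TPM after LPS, against 40, 44.2, 46 and 30 TPM after PBS. Apart from naive LPS replicate 1, the libraries of a group lay close together, and treatments did not overlap. The log2 change by edgeR was 0.69 (SE 0.21, adjusted p = 0.0435) in experienced and 1.33 (SE 0.22, adjusted p = 0.000593) in naive mice. The experienced call of Lmo4 was lost in 11 of 25 alternative settings, with adjusted p up to 0.301. Without naive LPS replicate 1 the naive change was 0.96 (adjusted p = 0.00029, edgeR), still past the threshold.

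Counted over the members, 7 of 9 rose after LPS in experienced mice, beside 4.52% of all tested genes, and 9 of 9 in naive mice, beside 9.81%. No member fell in either comparison by edgeR, none was lower at an unadjusted p under 0.05, and none was called lower by DESeq2. The median log2 change of the members was 1.92 in experienced and 3.0 in naive mice, beside medians over all tested genes of -0.02 in experienced and 0.02 in naive mice. LPS and PBS libraries did not overlap in TPM for 5 of 9 members in experienced mice, as for 3.81% of tested genes, and for 9 of 9 in naive mice, as for 4.2%. The members were picked as markers of 1 pair of cell types, so these counts are not independent of each other. The choice was also made with earlier results of these data known, so the comparison with all tested genes is a description only. In experienced mice the number that rose was 8 with DESeq2, 4 when the experienced libraries were fitted alone, and 3 without any 1 of experienced PBS replicates 1 and 2 or experienced LPS replicates 1 and 3. The number of all tested genes that rose moved as well, from 686 of 15186 in the main fit. It was 1178 of 15186 with DESeq2, 479 of 14039 with the experienced libraries alone, and 302 to 393 in the fits that gave 3 members.

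**Figure D2:**
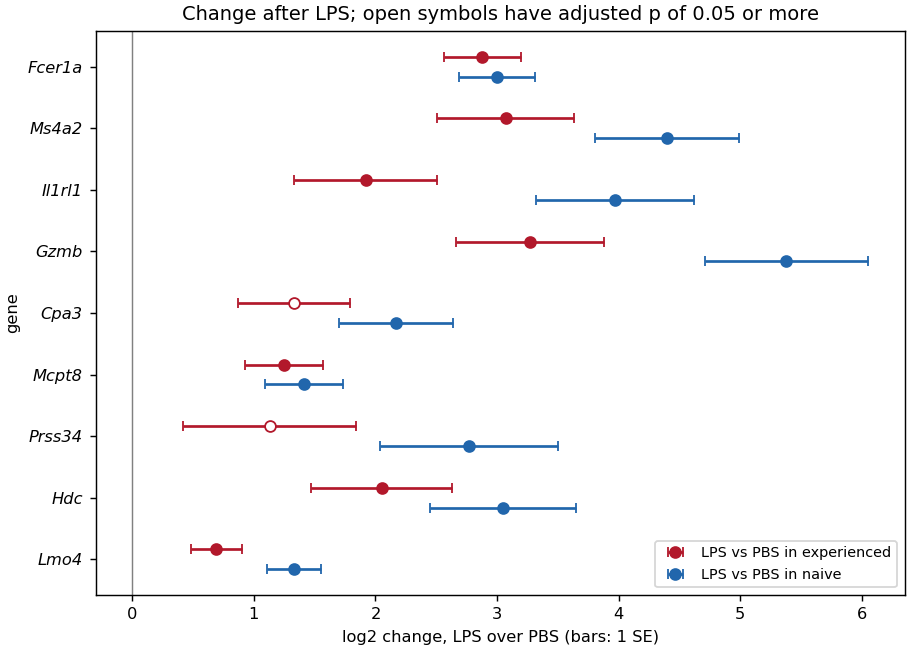
Change after LPS of each of the 9 genes (log2, LPS over PBS) in experienced mice (upper symbol) and naive mice (lower symbol), with bars of 1 SE from the edgeR fit over 16 libraries. The values run from 0.69 to 3.27 in experienced and from 1.33 to 5.38 in naive mice; the open symbols are Cpa3 and Prss34 in experienced mice.

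The order of levels shifted between rest and LPS. By median TPM, Lmo4 (48) and Cpa3 (29.7) led in experienced PBS libraries, followed by Mcpt8 (11.1), with Ms4a2 (3.95) and Gzmb (2.4) last. After LPS the experienced medians ran from Lmo4 (70.4), Cpa3 (62.2) and Ms4a2 (46.6) to Gzmb (20) and Prss34 (5.66). In naive LPS libraries Cpa3 (103), Lmo4 (73) and Ms4a2 (64.5) led and Prss34 (14) was last. Neighbours in this order overlapped in range, as with Cpa3 and Lmo4 in both LPS groups. The ratio of Ms4a2 to Mcpt8 TPM within a library was 1.47, 1.7, 1.77 and 5.15 in experienced LPS, against 0.176, 0.378, 0.37 and 0.976 in experienced PBS libraries. In naive libraries that ratio was 3.17, 3.97, 2 and 1.22 after LPS, against 0.546, 0.349, 0.274 and 0.204 after PBS. All 8 LPS libraries thus had more Ms4a2 than Mcpt8 per length, and all 8 PBS libraries less. The ratio of Cpa3 to Mcpt8 overlapped between treatments, at 2.08 to 13.8 in experienced LPS, 2.21 to 4.97 in experienced PBS, 1.99 to 7.1 in naive LPS and 2.04 to 4.01 in naive PBS libraries.

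Experienced and naive HSPCs were then compared within each treatment, which asks whether a past leukaemia altered these transcripts. After LPS, 0 of 9 members differed by edgeR, 0 at an unadjusted p under 0.05 and 0 by DESeq2, where 0% of tested genes were called in either direction by edgeR. All 9 log2 differences, experienced over naive, were below 0, from -1.13 (Prss34, SE 0.69) to -0.24 (Mcpt8, SE 0.31). After PBS, 0 of 9 differed by edgeR and 0 by DESeq2, and again 0% of tested genes were called by edgeR. The largest difference was that of Il1rl1 (1.66, SE 0.60, unadjusted p = 0.0135, adjusted p = 0.988, edgeR), the single member at an unadjusted p under 0.05. It was followed by Gzmb (1.35, SE 0.64) and Ms4a2 (0.86, SE 0.55), and the lowest was Fcer1a (-0.43, SE 0.31). The values after PBS rest on 2 libraries: without experienced PBS replicates 3 and 4, Il1rl1 stood at -0.55, Ms4a2 at -0.68 and Hdc at -1.17.

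The difference between the LPS changes of experienced and naive mice was tested as an interaction. By edgeR it passed for 0 of 9 members and 0% of tested genes, and by DESeq2 for 0 of 9 members. All 9 values were below 0, so that the fitted change was smaller in experienced mice. Gzmb (-2.11, SE 0.84), Il1rl1 (-2.05, SE 0.83) and Lmo4 (-0.64, SE 0.30) reached an unadjusted p under 0.05 (0.0225, 0.0244 and 0.0497), with adjusted p = 0.884 by edgeR for each. Fcer1a (-0.12, SE 0.43) and Mcpt8 (-0.16, SE 0.45) had the values closest to 0. With experienced PBS replicates 3 and 4 left out, a choice made after seeing the data, 6 of 9 values changed sign, to between 0.17 (Il1rl1) and 0.8 (Hdc). These within-treatment differences and the LPS changes use the same libraries and are not independent of each other.

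Those 2 resting libraries stood apart from the others of their group. Replicates 3 and 4 of experienced PBS were both above replicates 1 and 2 for 8 of the 9 members, all but Fcer1a, and for 20.4% of tested genes. The highest library exceeded the lowest by 13.2-fold for Il1rl1, 10.1-fold for Ms4a2, 6.77-fold for Hdc and 5.23-fold for Gzmb, but by 1.35-fold for Lmo4. The summed TPM of 14 erythroid markers was also higher in replicates 3 and 4, at 327, 362, 1094 and 2586 in experienced PBS replicates 1 to 4, beside 402, 532, 536 and 309 in naive PBS. So were the sums of 9 eosinophil genes (14.3, 10, 54 and 60.7), 12 neutrophil genes (1257, 1038, 2235 and 2986) and 12 monocyte and macrophage genes (88.3, 58.1, 169 and 161). Sums of stem cell and sort gate genes were lower there (1156, 1059, 925 and 792). Without replicates 3 and 4 the LPS change in experienced mice was 4.13 for Il1rl1, 4.61 for Ms4a2, 3.85 for Hdc and 2.35 for Cpa3. In that fit 8 of 9 members passed the test, beside 974 of 15998 tested genes that rose. The choice was made after the high member levels there had been seen. Larger changes follow from such a choice, so these values are a description only. The part of these other lineages in the differences was not tested.

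**Figure D3:**
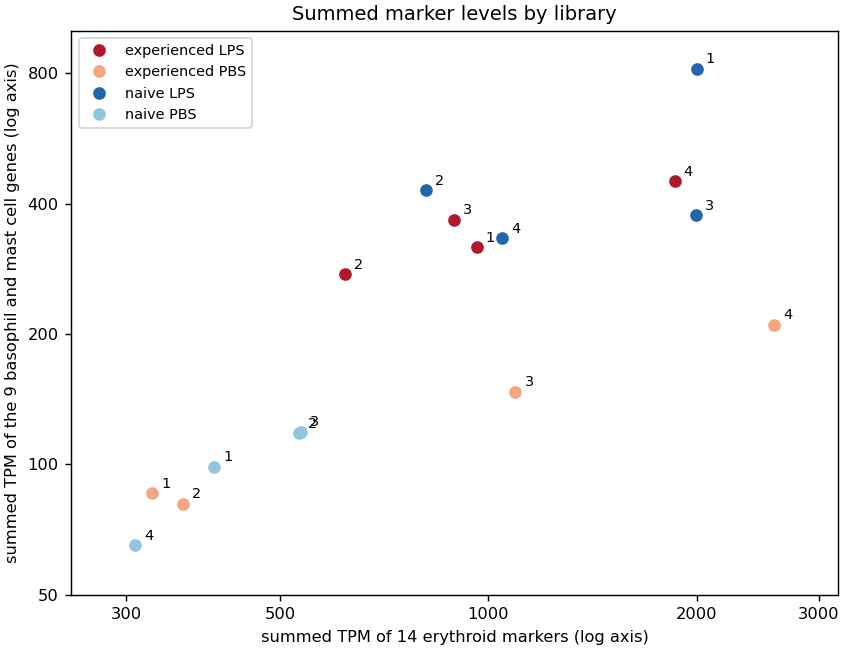
Summed TPM of the 9 basophil and mast cell genes (vertical, log axis) against summed TPM of 14 erythroid markers (horizontal, log axis) in each of 16 libraries, numbered by replicate and coloured by group. LPS libraries have member sums of 275 to 820 and PBS libraries of 65.1 to 210, and experienced PBS replicates 3 and 4 lie far to the right of replicates 1 and 2.

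Across the 16 libraries, after each group's mean was removed, members varied together to different degrees. Of 36 pairs 34 had a Pearson r above 0, with a median of 0.51. The libraries share depth and cell mix, so these values are descriptions. Ms4a2, Il1rl1 and Cpa3 were closest, with r = 0.89 (rho = 0.81) for Ms4a2 and Il1rl1, 0.88 (rho = 0.89) for Ms4a2 and Cpa3 and 0.80 (rho = 0.76) for Il1rl1 and Cpa3. Without the 2 libraries whose members deviated most, on average, from the group mean, experienced PBS replicate 4 and naive PBS replicate 4, these were 0.81, 0.89 and 0.73. Mcpt8 paired with Hdc (r = 0.83, rho = 0.76), Fcer1a (0.81, rho = 0.79) and Prss34 (0.75, rho = 0.64), with 0.75, 0.82 and 0.69 without those libraries. Hdc was close to both groups of genes, with r = 0.81 (rho = 0.78) to Il1rl1 and 0.75 (rho = 0.67) to Ms4a2, and 0.75 and 0.60 without those libraries. Il1rl1 had r = 0.53 (rho = 0.51) to Mcpt8 and 0.52 (rho = 0.59) to Prss34. The lowest pairs were Fcer1a and Cpa3, with r = -0.29 (rho = -0.15), Fcer1a and Ms4a2, with -0.01 (rho = -0.08), and Fcer1a and Lmo4, with 0.01 (rho = 0.00). Experienced LPS replicate 4 had the highest Cpa3, Ms4a2, Il1rl1 and Gzmb of its group and the lowest Fcer1a, Mcpt8, Hdc and Prss34.

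**Figure D4:**
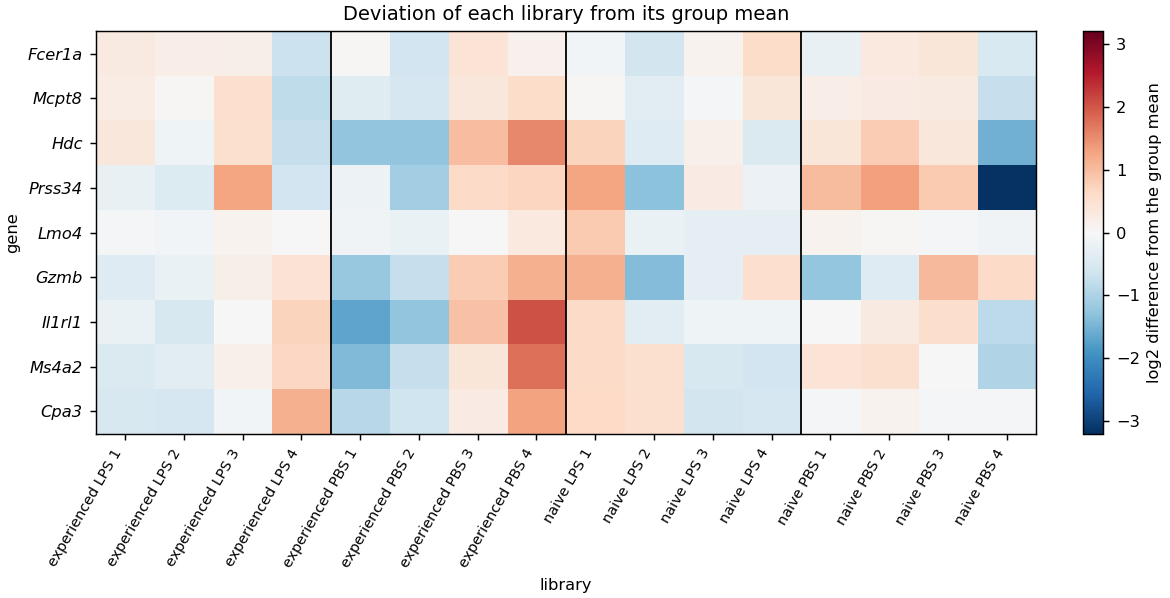
Deviation of each library from its group mean (log2, colour) for the 9 genes, with libraries ordered by group. Experienced PBS replicates 1 and 2 lie below and replicates 3 and 4 above their mean for most genes, and experienced LPS replicate 4 is low for the upper genes and high for the lower ones; the range is -3.16 (Prss34 in naive PBS replicate 4) to 2.03 (Il1rl1 in experienced PBS replicate 4).

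By likeness to the mean of the members over the 16 libraries, again with group means removed, the closest of 10190 candidate genes were Nrbf2, Gata1, Kel, Fcgr3, Nptn and Col5a1, with r between 0.93 and 0.94. Gata1, the erythroid and mast cell transcription factor, had r = 0.94 (rho = 0.91, 0.89 without 2 libraries) and Kel, a red cell surface protease, r = 0.94 (rho = 0.88, 0.89 without 2 libraries). Fcgr3, a low-affinity receptor for immunoglobulin G, had r = 0.93 (rho = 0.91, 0.92 without 2 libraries). In naive mice Gata1 rose by a log2 of 2.25 (SE 0.48, adjusted p = 0.00411, edgeR), Kel by 3.59 (SE 0.85, adjusted p = 0.00736) and Nrbf2 by 0.77 (SE 0.15, adjusted p = 0.00281). In experienced mice the 6 genes had log2 changes from -0.28 (Fcgr3) to 0.60 (Gata1), with adjusted p from 0.439 to 0.928 by edgeR.

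Beyond the members, 91 other genes of the same biology were listed and 70 of them tested. Of these, 9 rose and 4 fell in experienced and 15 rose and 11 fell in naive mice, with median log2 changes of 0.05 in experienced and -0.01 in naive mice. That is 12.9% higher and 5.71% lower in experienced mice, beside 4.52% and 8.26% of all tested genes, and 21.4% higher and 15.7% lower in naive mice, beside 9.81% and 11.9%. Among 14 other genes of IgE receptor signalling, 1 fell in experienced (7.14%) and 2 fell in naive mice (14.3%), near the shares of all tested genes. None of the others passed the test. Plcg1, a phospholipase downstream of the receptor, fell in both kinds (log2 -0.51, SE 0.15, adjusted p = 0.0397 in experienced and -0.71, SE 0.15, adjusted p = 0.00471 in naive mice). The adaptor Grap2 fell in naive mice (-1.36, SE 0.40, adjusted p = 0.0241). Its levels there were low, at 0.465 ± 0.117 TPM after LPS against 1.31 ± 0.439 TPM after PBS (SD, n = 4 each).

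Of 10 other tested receptors for alarmins and growth factors, 2 rose in both kinds of mice, and 1 fell in experienced and 2 in naive mice. That is 20% higher and 10% lower in experienced mice, beside 4.52% and 8.26% of all tested genes. In naive mice it is 20% each way, beside 9.81% and 11.9%. Csf2rb, the common beta chain for interleukin-3, interleukin-5 and GM-CSF, averaged 78.7 ± 12.6 TPM in experienced LPS and 20.1 ± 3.64 TPM in experienced PBS libraries, and 86.8 ± 38.3 TPM in naive LPS and 20.8 ± 3.7 TPM in naive PBS libraries (SD, n = 4 each). Its log2 change was 2.11 (SE 0.20) in experienced and 2.16 (SE 0.20) in naive mice, and that of its close copy Csf2rb2, which serves interleukin-3, was 3.60 (SE 0.32) in experienced and 3.83 (SE 0.32) in naive mice, each past the threshold in edgeR's test. The copies share sequence, so their separate values are uncertain. Il18r1, a subunit of the interleukin-18 receptor of the same receptor family as Il1rl1, moved the opposite way, with log2 -1.30 (SE 0.33, adjusted p = 0.0166, edgeR) in experienced and -1.99 (SE 0.34, adjusted p = 0.000787) in naive mice. Its partner Il18rap fell in naive mice (-1.25, SE 0.21, adjusted p = 0.000724, edgeR) and stood at -0.64 (adjusted p = 0.0501) in experienced mice.

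For mediator synthesis, 1 of 8 other tested genes rose in both kinds of mice, and 2 fell in naive mice. The share that rose is 12.5%, beside 4.52% of all tested genes in experienced and 9.81% in naive mice. The share that fell in naive mice is 25%, beside 11.9%. Alox5, which starts leukotriene synthesis, rose by a log2 of 1.89 (SE 0.49, adjusted p = 0.0184, edgeR) in experienced and 3.21 (SE 0.52, adjusted p = 0.000529) in naive mice. Hpgds, a prostaglandin D2 synthase of mast cells, fell in naive mice (-1.50, SE 0.50, adjusted p = 0.0405) to 0.858 ± 0.365 TPM after LPS, against 2.09 ± 1.12 TPM after PBS (SD, n = 4 each). Of 4 other tested granule genes 1 rose in naive mice (25%, beside 9.81% of all tested genes). This was Cma1, a mast cell chymase, at 2.02 ± 1.17 TPM in naive LPS against 0.287 ± 0.273 TPM in naive PBS libraries (SD, n = 4 each; log2 3.02, SE 1.04, adjusted p = 0.0465, edgeR). In experienced mice Cma1 had a log2 change of 2.31 (SE 1.01, adjusted p = 0.144, edgeR). Of 7 tested cytokine genes, Il6 rose in both kinds of mice (2.68, SE 0.65, adjusted p = 0.0132 in experienced and 3.70, SE 0.64, adjusted p = 0.000968 in naive mice, edgeR). Il6 levels were low, at 1.48 ± 0.17 TPM in experienced LPS and 0.343 ± 0.331 TPM in experienced PBS libraries. In naive mice they were 2.81 ± 1.46 TPM after LPS and 0.272 ± 0.0957 TPM after PBS (SD, n = 4 each). Csf1 rose (0.86, SE 0.21) and Tnf fell (-1.20, SE 0.36) in naive mice. Of the 7 cytokine genes 14.3% rose in experienced mice, beside 4.52% of all tested genes. In naive mice 28.6% rose and 14.3% fell, beside 9.81% and 11.9%.

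Of 17 other transcription factors of the branch, 1 rose and 1 fell in experienced, and 4 rose and 1 fell in naive mice. In experienced mice that is 5.88% each way, near the 4.52% of all tested genes that rose and 8.26% that fell. In naive mice it is 23.5% higher and 5.88% lower, beside 9.81% and 11.9%. Gata2, needed for mast cells and basophils, rose by a log2 of 0.61 (SE 0.17, adjusted p = 0.0264, edgeR) in experienced and 0.83 (SE 0.17, adjusted p = 0.00316) in naive mice. Irf8, which basophil and mast cell progenitors need early and which also directs monocytes and dendritic cells, fell in both kinds of mice, with log2 -1.65 (SE 0.35, adjusted p = 0.00597, edgeR) in experienced and -2.77 (SE 0.37, adjusted p = 0.000113) in naive mice. Zfpm1, a partner of Gata1, rose in naive mice (0.72, SE 0.21, adjusted p = 0.0235, edgeR). Of 10 tested surface genes, 4 rose and 1 fell in experienced, and 5 rose and 3 fell in naive mice, beside the 4.52% and 9.81% of all tested genes that rose. The surface genes that rose include Itga2b, an integrin chain of megakaryocytes and of mast cell and basophil progenitors (1.82, SE 0.25 in experienced and 1.21, SE 0.24 in naive mice), and the inhibitory receptor Fcgr2b (1.19, SE 0.24 in experienced and 1.24, SE 0.24 in naive mice). The surface genes that fell are not named here.

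Other cell types use some of these members, and their marker genes were summed. For natural killer and cytotoxic T cells, which make Gzmb, Gzmk was at 0 in all 16 libraries, Cd3e reached at most 0.51 TPM, Prf1 1.33 TPM and Gzma 2.28 TPM. Klrd1 reached 7.29 TPM in 1 experienced LPS library. Gzmc of this list was at 0 in all PBS libraries and at 1.6 to 5.56 TPM after LPS. The summed level of the 17 genes, nearly all of it Nkg7, was 106 to 196 TPM in experienced LPS, 136 to 156 in experienced PBS, 113 to 182 in naive LPS and 162 to 183 in naive PBS libraries. For group 2 innate lymphoid cells, which carry Il1rl1, the sum of 10 genes was 3.57 to 9.27 TPM in experienced LPS, 10.4 to 18.9 in experienced PBS, 3.3 to 9.15 in naive LPS and 13.9 to 19.5 in naive PBS libraries, lower after LPS in every library. Most of this sum was Gata3, with a median of 11.5 TPM in naive PBS libraries. Il5, Il13, Areg, Klrg1 and Arg1 reached at most 0.26 TPM in any library, so the sum says little about these cells. For eosinophils, Epx reached at most 3.98 TPM and Ccr3 0.55 TPM, while Prg2 reached 43.8 TPM in experienced PBS. Siglecf had medians of 12.9 TPM in experienced LPS and 7.66 TPM in experienced PBS, and 12.9 TPM in naive LPS and 7.74 TPM in naive PBS libraries. The sum of 9 genes was 10.5 to 28.3 TPM in experienced LPS, 10 to 60.7 in experienced PBS, 9.5 to 43.4 in naive LPS and 7.41 to 29.9 in naive PBS libraries.

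Other lists moved with LPS beside the members. The erythroid sum was 620 to 1857 TPM in experienced LPS, 327 to 2586 in experienced PBS, 812 to 2000 in naive LPS and 309 to 536 in naive PBS libraries, with naive treatments apart. That of 10 megakaryocyte genes was 478 to 635 TPM in experienced LPS, 306 to 397 in experienced PBS, 405 to 558 in naive LPS and 305 to 460 in naive PBS libraries. Sums of 10 B cell genes were 43.5 to 203 TPM in experienced LPS, 265 to 2068 in experienced PBS, 63.5 to 131 in naive LPS and 471 to 799 in naive PBS libraries. Sums of 9 genes of stem cells and the sort gate were 613 to 713 TPM in experienced LPS, 792 to 1156 in experienced PBS, 567 to 781 in naive LPS and 929 to 1137 in naive PBS libraries. Ly6a, which encodes the gate marker Sca1, was itself higher after LPS, at 130 to 201 TPM in experienced LPS against 26.3 to 78.1 in experienced PBS, and 90.7 to 231 in naive LPS against 48.9 to 70.9 in naive PBS libraries. Sums of 12 neutrophil genes overlapped between treatments, at 1211 to 3060 TPM in experienced LPS, 1038 to 2986 in experienced PBS, 974 to 2241 in naive LPS and 624 to 1858 in naive PBS libraries. So did those of 6 plasmacytoid dendritic cell genes, at 134 to 194 TPM in experienced LPS, 140 to 228 in experienced PBS, 161 to 184 in naive LPS and 154 to 218 in naive PBS libraries. Sums of 12 monocyte and macrophage genes were 43.6 to 68.2 TPM in experienced LPS, 58.1 to 169 in experienced PBS, 42.8 to 60 in naive LPS and 46.5 to 101 in naive PBS libraries. The neutrophil sum was mostly Mpo, Prtn3, Ctsg and Elane, and its genes did not move alike. Median S100a8 was 4.75 TPM in experienced LPS against 23.9 in experienced PBS, and 2.78 in naive LPS against 8.5 in naive PBS libraries. Median Mpo was 1281 TPM in experienced LPS against 835 in experienced PBS, and 938 in naive LPS against 795 in naive PBS libraries. The ranges of both genes overlapped between treatments. The neutrophil gene Ly6g reached at most 0.32 TPM. The part of a changed cell mix inside the gate in the member changes was not tested.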

How the data were processed

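RNA from sorted HSPCs was measured in 16 libraries, grouped by the sample titles. Per the submitters' processing notes, the tools were Trim Galore 0.6.7, STAR 2.7.10a and RSEM 1.3.1 on GRCm38. Neither the annotation release nor the strand setting is given in the sources used here. Deposited tables hold expected counts (estimated counts that need not be whole), TPM and abundance-weighted transcript lengths, per the file headers. The labels list 2 technical replicates per biological replicate and name a droplet library kit, but there is 1 bulk table per biological replicate, and whether runs were merged is not stated. The titles call the replicates biological, but no label says that they came from separate mice. The p-values therefore cover only the spread between these samples, which may not be the spread between mice.

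Expected counts were rounded, filtered with filterByExpr and tested over all 4 groups with edgeR 4.0.16 (R 4.3.3, TMM factors, quasi-likelihood test, Benjamini-Hochberg adjusted p under 0.05) in 15186 genes. Counts limit precision: Prss34 rests on as little as 1 count in a library. Alternatives were DESeq2 1.42.0, upper-quartile factors, no filter, limma 3.58.1 on log2(TPM + 1) or log2(TPM + 0.1), a replicate block, pairs of groups alone and leaving out libraries. The fitting was also run on simulated counts drawn separately for each gene. That run held no shifts shared by the genes of a library, so it does not cover libraries that stand apart. Symbols came from GENCODE, matching 45143 of 45706 identifiers. Named beyond the members were up to 4 called genes per pathway list with the lowest adjusted p in naive mice, and the 6 genes with the highest r to the mean member deviation where the mean log2 CPM was 2 or more. Fcer1g and the chromosome 14 proteases other than Cma1 were named after their values were seen. The members and lists were chosen with earlier results of these data known.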

Additional observations from a re-analysis of the deposited data

Results flagged for a closer look

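In 36 sets of 4 libraries (9 genes in 4 groups), the highest or lowest library was compared with the others by Dixon's ratio, the gap to the nearest library over the range of the set. Chance alone puts about 1 in 20 sets past its critical value, and 4 values passed it here. In naive LPS, replicate 1 was high for Il1rl1, at 76.1 TPM (ratio 0.892), and for Lmo4, at 191 TPM (ratio 0.871). In experienced LPS, replicate 4 was high for Cpa3, at 177 TPM (ratio 0.853), and replicate 3 was high for Prss34, at 16.5 TPM (ratio 0.878). Naive LPS replicate 1 also had the highest summed level of the 9 genes of all libraries, at 820 TPM. Experienced LPS replicate 4 had the highest mitochondrial share, 7.3%, and the lowest total, 7718857 expected counts, and the part of depth and RNA quality in its Cpa3 level was not tested.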

How the results depend on the processing

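Over 25 alternatives, Fcer1a, Ms4a2 and Gzmb kept their calls after LPS in both kinds of mice. In naive mice the number of members that rose was 8 or 9 in every alternative. In experienced mice (7 of 9) it was 4 when the 2 groups were fitted alone and 3 to 8 over the fits that left out 1 library. It was 8 with DESeq2 and 5 with limma. Of all tested genes, 479 of 14039 rose in experienced mice when the 2 groups were fitted alone, and 1178 of 15186 with DESeq2. Over the fits that left out 1 library this ran from 302 of 15535 to 1456 of 15558. The cause of the lower counts was not tested, beyond the fewer libraries that some fits hold. Limma on log2(TPM + 1) shifted the median of all genes to -0.12 in experienced mice and called 154 genes higher and 811 lower there, against 686 and 1254 by edgeR, and 330 and 1270 in naive mice, against 1490 and 1803; members stayed above 0. The labels do not say whether replicate numbers pair the samples, and correlations over 4 libraries per group cannot settle it. Same-numbered samples had correlations from -0.35 to 0.57 over 24 pairs, 7 of them over 0.1, and the own number was best in 11 of 48 comparisons. Between experienced PBS and experienced LPS they were 0.27, 0.39, -0.15 and 0.47 for replicates 1 to 4. With a replicate block 5 members rose in experienced and 9 in naive mice, beside 540 and 1236 of 15186 tested genes.

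Signs changed in comparisons in which no member passed the test. For experienced over naive after PBS, leaving out 1 library gave -0.31 to 0.08 for Mcpt8, -0.05 to 1.19 for Ms4a2, -0.15 to 0.71 for Cpa3 and 0.00 to 0.94 for Hdc. Without naive LPS replicate 2, experienced PBS replicate 4 and experienced LPS replicate 4, the libraries least like their groups, Ms4a2 was -0.06, Cpa3 -0.14 and Hdc -0.01. Without experienced PBS replicates 3 and 4, Ms4a2 was -0.68, Il1rl1 -0.55, Cpa3 -0.56, Hdc -1.17 and Prss34 -0.24. For the interaction, leaving out 1 library gave -0.3 to 0.12 for Fcer1a and -0.35 to 0.06 for Mcpt8. Mcpt8 was 0.17 without the 3 libraries. Without experienced PBS replicates 3 and 4, Fcer1a was 0.2, Ms4a2 0.22, Il1rl1 0.17, Cpa3 0.19, Hdc 0.8 and Mcpt8 0.38. Both of these choices were made after seeing the data.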

Other observations

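Proteases of mature mast cells were near the limit of detection. Mcpt1, Mcpt2 and Mcpt4, which mark mucosal or connective tissue mast cells, had too few reads to be tested. Summed over the 4 libraries of a group, they had 10, 8 and 6 counts in experienced LPS, against 0 counts each in experienced PBS. In naive mice they had 12, 9 and 10 counts after LPS, against 2, 1 and 6 counts after PBS. The ratio of Gzmb to Mcpt8 TPM within a library was 0.603, 0.793, 0.741 and 2.29 in experienced LPS, against 0.102, 0.162, 0.258 and 0.291 in experienced PBS libraries. In naive mice that ratio was 2.36, 0.536, 0.926 and 1.19 after LPS, against 0.0209, 0.0436, 0.132 and 0.189 after PBS. No LPS library overlapped a PBS library in this ratio.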
